A study of Homo sapiens with 2 samples.

Results

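In all, 10 genes of the proximal tubule brush border and of tubule injury were followed in the human clear cell renal carcinoma line 786-O and in its SETD2 knockout derivative. The 10 genes were taken by symbol from a fixed list, and all 10 had a row among the 23375 gene rows kept. They were the peptidase and transferase genes ANPEP, MME, DPEP1, DPP4 and GGT1, the endocytic receptor genes LRP2 and CUBN, the scaffold gene PDZK1, the injury marker HAVCR1 and the creatine synthesis gene GATM. The study sequenced RNA of 1 library from each line, and the comparison asks how transcripts differ when SETD2 is disrupted. The wild-type group was the unmodified 786-O line, an established line that lacks functional VHL. The knockout group was a 786-O derivative whose SETD2 gene had been disrupted by a zinc finger nuclease (ZFN), an engineered enzyme that cleaves DNA at a programmed sequence. Both were grown in RPMI1640 medium with serum, without any treatment named in the labels. Whether the knockout line is 1 clone is not given in the sources used here. SETD2 is the methyltransferase that trimethylates lysine 36 of histone H3 along transcribed genes.

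The brush border is the carpet of microvilli on the luminal face of proximal tubule cells. Its membrane carries peptidases that split filtered peptides into amino acids, and the large receptors megalin (LRP2) and cubilin (CUBN), which take up filtered proteins by endocytosis. Scaffold proteins with PDZ domains, such as PDZK1, tether transporters to the microvillus. Clear cell renal carcinoma is thought to arise from this epithelium and keeps some of its surface antigens.

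The wild-type and knockout tables held 62304084 and 50670012 fragments in genes. SETD2 had 4908 wild-type and 1404 knockout fragments, a ratio of 0.334 with an interval of 0.314 to 0.354, so its transcript was lower but still present in the library labelled knockout. A ratio is the knockout over the wild-type number of fragments after TMM scaling (edgeR's trimmed-mean factors), and its interval is the exact 95% counting interval. A gene was called higher or lower where the whole interval lay beyond 2-fold. The design has 1 library per line, so the differences have no replicate check, no test was possible, and every interval covers counting error only. Levels of different genes are compared only in RPKM, the authors' read count divided by gene length and by library size. RPKM is not TMM-scaled, so the 2 RPKM values of a gene can differ in direction from its ratio. For DPP4 the RPKM ratio was 2.10 and the TMM-scaled ratio 1.99. In such bulk RNA, fewer expressing cells and less RNA per cell cannot be told apart.

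The peptidase transcripts did not move together. ANPEP nearly disappeared from the knockout library, MME and GGT1 were lower, DPP4 was about 2-fold higher, and LRP2 was not counted in either library. Of the 10 genes, 8 had at least 10 reads over both libraries and were tested. Of these, 3 were called lower (ANPEP, MME and GGT1), where 3.37% of all 16894 genes tested were called lower. None was called higher with TMM scaling, against 5.75% of all genes tested, and 9.12% of all genes were called in either direction. With a bound of 1.5-fold, 4 were called lower and 1 higher, where 9.17% and 10.4% of all genes were, 19.6% in total. By the ratio alone beyond 2-fold, 3 were lower and 0 higher, where 7.79% and 13.5% of all genes were. The median log2 ratio of the 8 genes was -0.80, and that of all genes tested was 0.02. DPP4, CUBN, PDZK1, HAVCR1 and GATM were not called, and DPEP1 and LRP2 had too few reads.

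**Figure D1:**
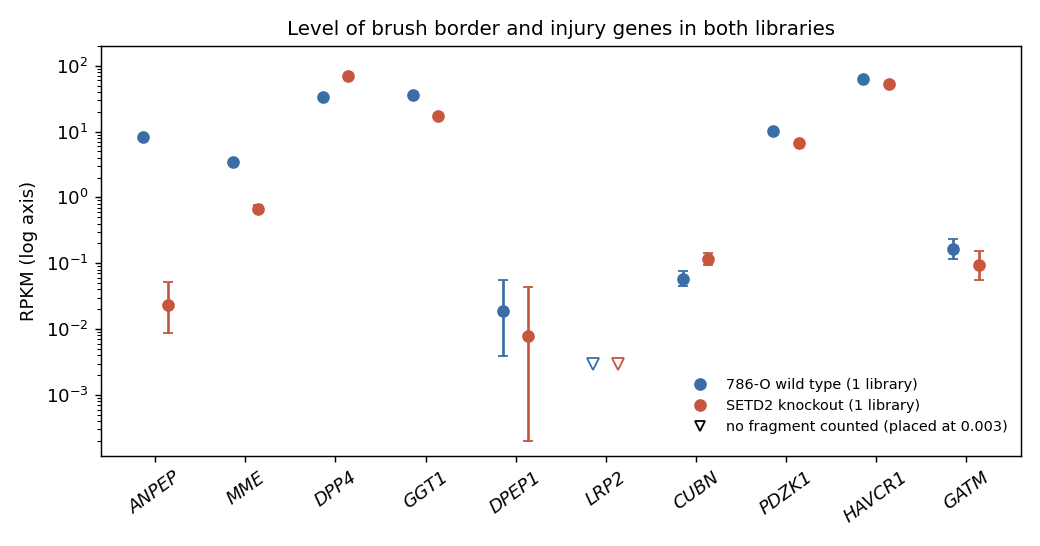
RPKM of the 10 genes (log axis) in the wild-type (blue) and the knockout (red) library, 1 library each, with exact 95% counting intervals as bars. ANPEP lies at 8.36 in the wild type and 0.0236 in the knockout, DPP4 at 33.0 and 69.5, and LRP2, with no fragment in either, is drawn as open triangles.

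In the order of levels, HAVCR1 was the most abundant of the 10 transcripts in the wild-type library at 62.8 RPKM. GGT1 followed at 35.8 RPKM and DPP4 at 33.0 RPKM, then PDZK1 at 10.4, ANPEP at 8.36 and MME at 3.49 RPKM. These 6 genes lay between percentiles 63.9 and 96.6 of all gene rows by RPKM. The other 4 were near the bottom of the range, with GATM at 0.167, CUBN at 0.0586, DPEP1 at 0.0191 and LRP2 at 0 RPKM. In the knockout library the order began with DPP4 at 69.5 RPKM, before HAVCR1 at 52.1, GGT1 at 17.0 and PDZK1 at 6.60 RPKM. MME at 0.679, CUBN at 0.117, GATM at 0.0945 and ANPEP at 0.0236 RPKM came next. Thus 6 of the 10 genes were at 1 RPKM or more in the wild type and 4 in the knockout. Neighbours in this order whose counting intervals overlapped were CUBN and DPEP1 in the wild type, and the pairs CUBN and GATM, ANPEP and DPEP1, and DPEP1 and LRP2 in the knockout, with 3 fragments as the upper limit of a gene at 0. GGT1 and DPP4 in the wild type differed by a factor of 1.08 with intervals of 35.0 to 36.6 and 32.4 to 33.6 RPKM, and no replicate shows whether that order holds between cultures.

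ANPEP encodes aminopeptidase N (CD13), a zinc peptidase that removes neutral amino acids from the amino end of peptides. Its row spans hg19 chromosome 15, 90328126 to 90358072. It was counted in 2616 wild-type fragments and in 6 knockout fragments, or 43.1 and 0.115 CPM, the fragments relative to the TMM-scaled library size. The knockout level was 374-fold lower (interval 172 to 1020). Only 4 of the 16894 genes tested had a lower log2 ratio than the -8.43 of ANPEP. In RPKM the gene moved from percentile 76.2 to percentile 29.5 of all rows, and its 6 knockout fragments are of the order of the 3 and 1 fragments of DPEP1, a gene at the floor in both libraries. The nearest expressed genes did not share this. MESP1, 33.6 kb away, had only 23 and 42 fragments and a ratio of 2.13 (interval 1.25 to 3.71). AP3S2, 15.8 kb away, had 311 and 261 fragments and a ratio of 0.979 (0.827 to 1.16). Of the 50 nearest expressed genes, 0 had a log2 ratio below that of ANPEP, and the lowest was -3.50.

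ANPEP is known to start at 2 places, a distal one used in myeloid cells and a proximal one used in epithelia, and the deposited row does not separate them. RefSeq lists both starts, and the 250 bases before each are shown because ANPEP is the gene with the lowest ratio and its transcripts begin beside them. The distal window is chr15:89814853-89815102 and the proximal window chr15:89806629-89806878, both on the minus strand of GRCh38.p14. This build differs from the hg19 of the count tables, and no coordinate was carried between them. Capitals mark matches to GTTAAT, to ACGTG, the core bound by hypoxia-inducible factors, to CAAAGTCCA and CAAAGGTCA, sites of the HNF4 kind, and to TATAAA, on either strand.
ANPEP distal: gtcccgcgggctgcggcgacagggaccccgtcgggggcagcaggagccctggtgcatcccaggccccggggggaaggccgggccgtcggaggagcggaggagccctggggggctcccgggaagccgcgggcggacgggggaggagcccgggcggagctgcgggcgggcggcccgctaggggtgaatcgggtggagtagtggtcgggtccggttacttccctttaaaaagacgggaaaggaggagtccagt
ANPEP proximal: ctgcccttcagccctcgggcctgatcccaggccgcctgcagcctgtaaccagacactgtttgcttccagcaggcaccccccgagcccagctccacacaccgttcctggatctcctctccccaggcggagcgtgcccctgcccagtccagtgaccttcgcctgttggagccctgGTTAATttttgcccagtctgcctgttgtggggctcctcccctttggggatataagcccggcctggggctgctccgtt
The proximal window held 1 GTTAAT, beginning 77 bases before the start, and 9 CpG dinucleotides, whereas the distal window held no match to these letters and 26 CpG. GTTAAT occurs in 6.23% of all 35116 RefSeq windows of the same length, and the median number of CpG is 11. A match describes letters only.

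MME encodes neprilysin (CD10), a zinc endopeptidase that degrades small peptide hormones. It lies on hg19 chromosome 3, 154797436 to 154901518. The wild-type library held 1803 fragments of MME and the knockout library 285, or 29.7 and 5.48 CPM. The knockout level was 5.42-fold lower (interval 4.78 to 6.17), and 290 of the genes tested had a lower log2 ratio. Unlike ANPEP, MME remained well above the floor of 3 fragments, at 0.679 RPKM. Its nearest expressed neighbours, DHX36 (ratio 1.18, 755 kb away) and PLCH1 (ratio 0.948, 296 kb away), were not called. Of the 50 nearest expressed genes, 1 had a lower log2 ratio.

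GGT1 encodes gamma-glutamyltransferase, the ectoenzyme that begins the breakdown of extracellular glutathione. It lies on hg19 chromosome 22, 24979718 to 25024972. Its fragments numbered 7982 in the wild type and 3085 in the knockout, 132 and 59.3 CPM, and its ratio was 0.451 with an interval of 0.432 to 0.470. This made it the called member with the most fragments. The row FAM211B lies within the GGT1 span and had 197 and 70 fragments (ratio 0.414, interval 0.311 to 0.547). The sources used here do not give the strand of the reads, so whether reads of these genes were told apart is not known. GGT1 also has near-identical copies, so its count is uncertain. Of these, GGT8P was counted in 1027 and 1214 fragments (ratio 1.38) and GGT3P in 13 and 5. The neighbours SNRPD3 (ratio 0.847, 11.2 kb away) and KIAA1671 (ratio 1.36, 399 kb away) lay on either side of 1. By distance in log2 CPM over the 2 libraries, the genes most like GGT1 were TRAF1 (7963 and 3022 fragments), ATN1 (7952 and 3240) and DNM1L (7581 and 3196), a likeness that rests on a single value per line.

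DPP4 encodes dipeptidyl peptidase 4 (CD26), a serine peptidase that clips dipeptides from incretins and chemokines. It lies on hg19 chromosome 2, 162848755 to 162931052. DPP4 had 11043 fragments in the wild type and 18855 in the knockout, 182 and 362 CPM. The ratio of 1.99 had an interval of 1.95 to 2.04, which straddles 2-fold, and 13.4% of genes tested had a higher log2 ratio. With total count scaling the ratio was 2.10 (2.05 to 2.15) and with upper quartile scaling also 2.10 (2.05 to 2.15). DPP4 was thus called higher under these scalings and not under TMM or DESeq2 size factors. Of all genes tested, 1081 and 1076 were called higher under these 2 scalings, against 971 with TMM. The nearest expressed gene on one side, IFIH1, an RNA sensor gene 193 kb away, had a ratio of 1.69. On the other side PSMD14, a proteasome subunit gene 581 kb away, had a ratio of 0.954. FAP, the closest relative of DPP4, was at 4 and 7 fragments.

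DPP4 was the only gene of the 5 peptidase and transferase genes with a ratio above 1, and its promoter window is shown for that reason (chr2:162074216-162074465, minus strand, GRCh38.p14).
DPP4: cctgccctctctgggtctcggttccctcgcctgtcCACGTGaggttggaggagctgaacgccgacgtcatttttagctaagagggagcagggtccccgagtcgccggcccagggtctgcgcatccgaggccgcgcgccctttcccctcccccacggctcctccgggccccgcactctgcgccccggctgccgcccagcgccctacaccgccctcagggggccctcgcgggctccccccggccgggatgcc
This window held 26 CpG and no GTTAAT, as did the distal ANPEP window, and the MME and GGT1 windows held no GTTAAT either. Its capitals mark ACGTG read on both strands, as the overlapping 6 letters CACGTG, and 18.5% of all windows hold ACGTG. The share of windows that hold CACGTG was not counted, and which factor binds these letters, if any, was not tested. The same letters also occurred in 1 of the 4 MME windows, 31 bases before the start, and in the GATM window, 207 bases before it.

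DPEP1, a membrane dipeptidase that splits cysteinylglycine from glutathione breakdown, was at 3 wild-type fragments and 1 knockout fragment. With 8 reads over both libraries it was not tested, and its ratio of 0.389 had an interval of 0.00741 to 4.84. No difference was detectable at this depth.

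**Figure D2:**
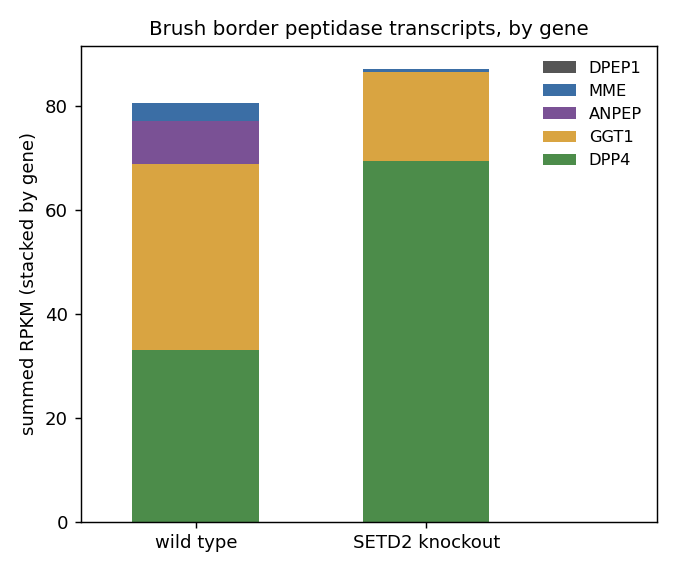
Summed RPKM of the 5 peptidase and transferase genes in the wild-type and knockout library (1 library each), stacked by gene from 0. The sum, which is not TMM-scaled, is 80.7 and 87.2, and DPP4 makes up 40.9% of it in the wild type and 79.7% in the knockout.

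The sum of these 5 transcripts was 80.7 RPKM in the wild-type and 87.2 RPKM in the knockout library, without TMM scaling. Its make-up differed: GGT1 held 44.4% of the wild-type sum and 19.5% of the knockout sum, ANPEP 10.4% and 0.0271%, and MME 4.32% and 0.778%. DPP4 held 40.9% and 79.7%. ANPEP, MME and GGT1 together came to 47.6 RPKM in the wild type and 17.7 RPKM in the knockout.

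**Figure D3:**
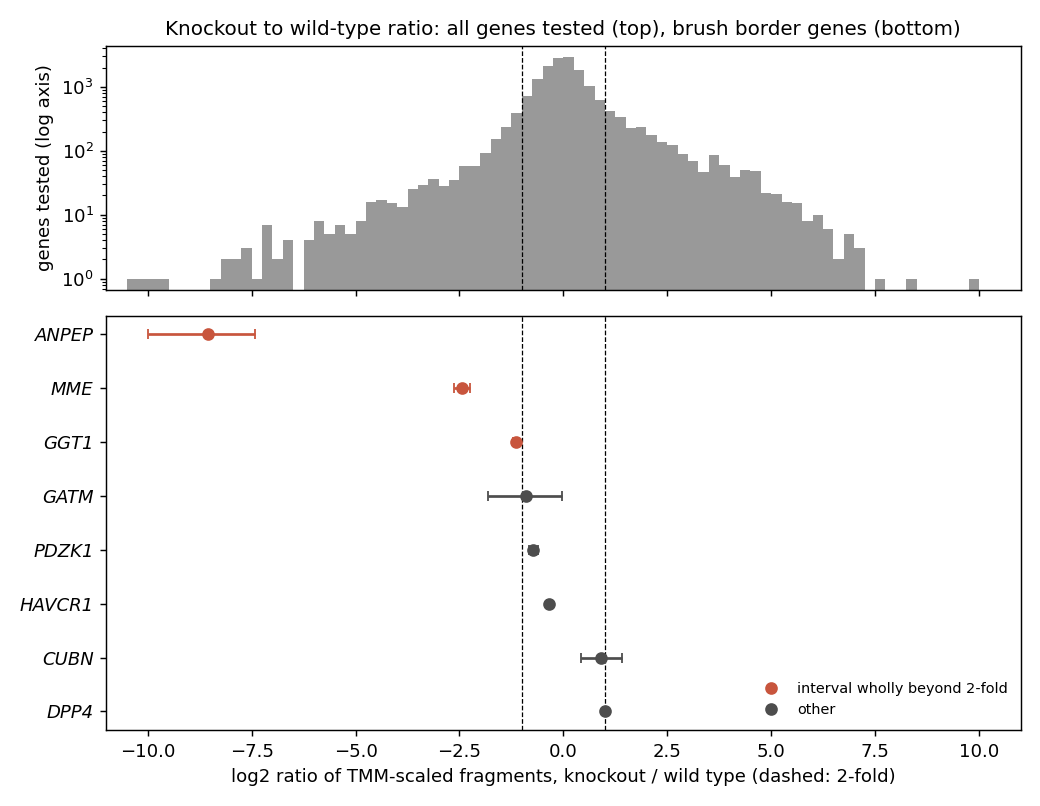
Log2 ratio of knockout to wild type for all 16894 genes tested (histogram, log axis, with 0.5 added fragments) and for the 8 tested brush border and injury genes (points, ratio of scaled fragments, with exact 95% counting intervals as bars), red where the interval lies beyond 2-fold. ANPEP lies far to the left at a ratio of 0.00268, MME and GGT1 left of the dashed 2-fold line, and DPP4 on the right-hand line at 1.99.

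Of the endocytic receptors, LRP2 (megalin) had 0 fragments in both libraries. A count of 0 allows up to 3 fragments, which for this gene is 0.00222 RPKM in the wild type and 0.00274 RPKM in the knockout, counting error only. CUBN, the peripheral receptor that megalin helps to internalise, had 60 fragments in the wild type and 97 in the knockout, 0.989 and 1.86 CPM, and lies on hg19 chromosome 10, 16865965 to 17171816. Its ratio was 1.89 with an interval of 1.35 to 2.65, so it was not called. The genes on both sides were in the other direction: RSU1, 6.51 kb away, had a ratio of 0.527 (0.510 to 0.545) and TRDMT1, 13.2 kb away, a ratio of 0.481 (0.426 to 0.542). The 50 nearest expressed genes had a median log2 ratio of -0.54, and 47 of them lay below CUBN. Relative to that median the ratio of CUBN was 2.73.

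Genes whose products work with these receptors were mostly expressed. Of 12 partner genes, all tested, 1 was called higher and 0 lower, where 5.75% and 3.37% of all genes tested were. Their median log2 ratio was 0.12. DAB2, the clathrin adaptor that binds the megalin tail, had 3507 and 6893 fragments and a ratio of 2.29 (2.20 to 2.39). AMN (amnionless), the membrane anchor of cubilin, had 5 and 9 fragments. In RPKM 10 of the 12 were at 1 or more in each library, while AMN at 0.0375 and 0.0831 lay below CUBN. Of 12 other LDL receptor family genes, 0 were called in either direction (median -0.12), where 9.12% of all genes tested were. LRP12 was the most abundant at 43.6 and 31.8 RPKM, followed by LRP10 at 27.3 and 28.0 RPKM (TMM-scaled ratio 0.972).

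PDZK1, a scaffold with PDZ domains that holds transporters at the apical membrane, lies on hg19 chromosome 1, 145727666 to 145764206. PDZK1 had 2043 fragments in the wild type and 1057 in the knockout, 33.7 and 20.3 CPM. Its ratio was 0.603 with an interval of 0.560 to 0.650, below 1 but not beyond 2-fold. The rows of 5 other genes overlap its span, and they held at most 8 fragments in a library. The pseudogene copy PDZK1P1 was at 0 fragments in both. Of 16 other microvillus scaffold genes, 14 were tested (median 0.01). Of these, 1 was called higher and 0 lower, where 5.75% and 3.37% of all genes tested were. The called gene was USH1C (harmonin), part of the intermicrovillar adhesion complex, with 113 and 254 fragments (ratio 2.62, interval 2.09 to 3.30), and with a 99% interval 0 genes of this list were called higher. PROM1 (prominin), a microvillus membrane protein also listed among the injury genes, had 0 and 8 fragments and was called higher with total count and upper quartile scaling, not with TMM. VIL1 (villin), the actin bundler that defines brush border microvilli, had 9 fragments and 1 fragment. EZR (ezrin), which links actin to the membrane in many cell types, was at 82.4 and 90.5 RPKM.

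HAVCR1 encodes KIM-1, a phosphatidylserine receptor that is scarce in healthy kidney and abundant in injured proximal tubule. It lies on hg19 chromosome 5, 156456531 to 156485970. HAVCR1 had 10118 fragments in the wild type and 6820 in the knockout, 167 and 131 CPM. Its ratio of 0.786 (0.762 to 0.811) was the nearest to 1 of the 8 tested genes, and the transcript lay at percentiles 96.6 and 95.9 of all rows. The 2 flanking genes belong to the same TIM family: TIMD4, 66.3 kb away, had 167 and 252 fragments (ratio 1.76, interval 1.44 to 2.15), and HAVCR2 (TIM-3), 26.9 kb away, had 132 and 15 (ratio 0.133, interval 0.0721 to 0.227). Neighbouring TIM genes thus had ratios on both sides of 1, and only HAVCR2 of the 3 was called.

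The promoter windows of HAVCR1 (chr5:157059117-157059366) and of the second RefSeq start of PDZK1 (chr1:145707369-145707618), both on the minus strand of GRCh38.p14, are shown because both genes stayed expressed in the knockout library and carry matches to these letters.
HAVCR1: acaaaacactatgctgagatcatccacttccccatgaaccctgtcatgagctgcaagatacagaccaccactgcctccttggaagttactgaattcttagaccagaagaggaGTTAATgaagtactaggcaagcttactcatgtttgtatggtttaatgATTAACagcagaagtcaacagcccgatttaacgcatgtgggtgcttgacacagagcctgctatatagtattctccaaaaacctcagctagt
PDZK1: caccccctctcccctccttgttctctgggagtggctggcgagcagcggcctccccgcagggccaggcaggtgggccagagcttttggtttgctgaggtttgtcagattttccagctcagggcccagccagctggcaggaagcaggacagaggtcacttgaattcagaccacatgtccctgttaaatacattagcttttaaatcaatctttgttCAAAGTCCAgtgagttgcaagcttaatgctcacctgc
HAVCR1 held GTTAAT or its reverse complement at 138 and 91 bases before the start, and PDZK1 held CAAAGTCCA at 37 bases before it, a match present in 0.325% of all windows. Elsewhere among the 19 windows of the 10 genes GTTAAT occurred in the proximal ANPEP window and in 1 of the 4 DPEP1 windows, 50 bases before the start. CAAAGGTCA occurred in the CUBN window, 220 bases before it. DPP4 and GGT1 also stayed expressed in the knockout library, and their windows held neither GTTAAT nor the letters of the HNF4 kind. A link between these letters and transcript levels was not tested. HNF4A was at 13 and 5 fragments and its relative HNF4G at 1140 and 839 (ratio 0.858), while PAX8, a renal lineage factor, was at 15208 and 8728 (ratio 0.669). Of the 8 proximal tubule transcription factors listed, CEBPA alone was called, where 9.12% of all genes tested were. CEBPA was at 8 and 100 fragments (ratio 14.6, interval 7.12 to 34.7).

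GATM, the mitochondrial amidinotransferase that makes the creatine precursor guanidinoacetate, was at 37 wild-type and 17 knockout fragments, 0.610 and 0.327 CPM (hg19 chromosome 15, 45653322 to 45670980). Its ratio of 0.536 had an interval of 0.283 to 0.976, so a difference beyond 2-fold could be neither shown nor set aside at this depth. LOC145663, a row that overlaps the end of GATM, had 7 fragments in each library. Of 7 other creatine genes 4 were tested and 0 were called (median 0.24), where 9.12% of all genes tested were. SLC6A8, the creatine transporter, was at 25.4 and 26.1 RPKM (TMM-scaled ratio 0.973). GAMT, the second enzyme of the pathway, was at 8.29 and 5.09 RPKM, and both genes lay far above GATM.

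**Figure D4:**
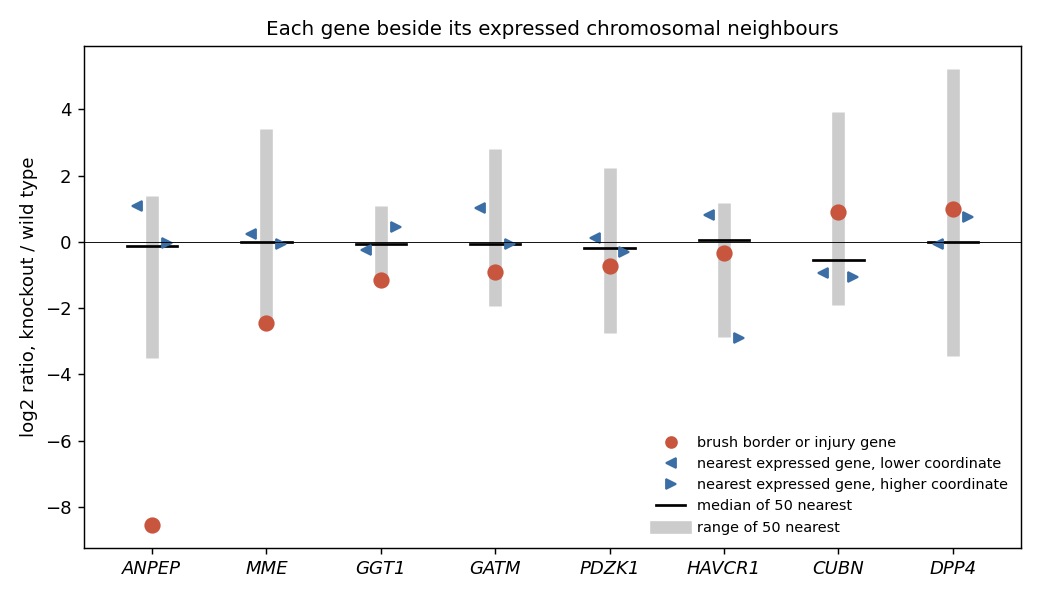
Log2 ratio of knockout to wild type for the 8 tested genes (red points), the nearest expressed gene on either side (blue triangles), and the median (black line) and range (grey bar) of the 50 nearest expressed genes. ANPEP lies below the range of its neighbours, whose lowest log2 ratio is -3.50, and CUBN lies above both of its flanking genes.

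Other peptidases were counted by list, where 5.75% of all genes tested were called higher and 3.37% lower. Of 10 other genes in the brush border peptidase list 6 were tested, 1 was called higher and 1 lower (median 0.54). The list is not confined to that membrane, since CTSH, its gene called higher, is lysosomal. Its median includes MEP1B at 0 and 6 fragments. ENPEP, aminopeptidase A of the brush border and a relative of ANPEP, had 8144 and 3281 fragments and a ratio of 0.470 (0.451 to 0.489). It was not called with total count (ratio 0.495, interval 0.476 to 0.516) or upper quartile scaling (interval 0.475 to 0.515). CTSH, a lysosomal aminopeptidase, had 393 and 796 fragments and a ratio of 2.36 (2.09 to 2.67). FOLH1, a carboxypeptidase, had 0 fragments in both libraries.

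The M1 aminopeptidase family shares its zinc site with ANPEP. Among 11 of its genes, 2 were called higher and 1 lower (median -0.03), where 5.75% and 3.37% of all genes tested were. The lower gene was ENPEP. The higher ones were TRHDE, which degrades thyrotropin-releasing hormone, at 4 and 68 fragments (ratio 19.8, interval 7.40 to 74.9), and AQPEP, at 4 and 40 (11.7, 4.22 to 44.9). Both remained below 0.2 RPKM. The other 8 had ratios from 0.696 (LTA4H, a leukotriene hydrolase) to 1.26 (ERAP2, a peptide-trimming enzyme of the endoplasmic reticulum). In the neprilysin family 0 of 4 tested genes were called (median -0.01), where 9.12% of all genes tested were. ECE1, an endothelin-converting enzyme, was at 89.5 and 65.7 RPKM and ECE2 at 1.20 and 1.22 RPKM (TMM-scaled ratio 0.963). In the DPP family 0 of 7 were called (median 0.22), beside the same 9.12%. DPP7 was at 35.3 and 59.8 RPKM and DPP9 at 27.1 and 26.8 RPKM. Among the other DPEP and GGT genes 1 of 7 was tested, GGT7, with a ratio of 0.820.

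Beside GGT1, 1 of 9 genes of glutathione synthesis and the gamma-glutamyl cycle was called lower and 0 higher (median 0.10). Of all genes tested, 3.37% were called lower and 5.75% higher. GCLM, the modifier subunit of glutamate-cysteine ligase, had 5944 and 2138 fragments and a ratio of 0.420 (0.399 to 0.441). Its catalytic partner GCLC had a ratio of 1.48 (1.39 to 1.58).

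Genes of the tubule injury list beside HAVCR1 were called in both directions. The list also holds TIMD4 and HAVCR2, TIM family relatives of HAVCR1 rather than injury markers, and both enter its counts and median. Of 16 tested, 5 were called higher and 3 lower (median 0.48), where 5.75% and 3.37% of all genes tested were. LCN2, the lipocalin used as a urinary injury marker, had 4 and 102 fragments (ratio 29.7, interval 11.3 to 111). SPP1 (osteopontin) had 19201 and 43820 fragments, 123 and 347 RPKM, and a ratio of 2.66 (2.62 to 2.71). The other called higher genes were ITGB6, IGFBP7 and TIMP2, and TIMP2 was not called with DESeq2 size factors (2.03, interval 1.99 to 2.08). CCL2, a monocyte chemokine, had 1706 and 69 fragments and was 21.2-fold lower (16.7-fold to 27.4-fold), VCAM1, an adhesion molecule, had a ratio of 0.385 (0.375 to 0.395), and HAVCR2 was the remaining lower gene.

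**Figure D5:**
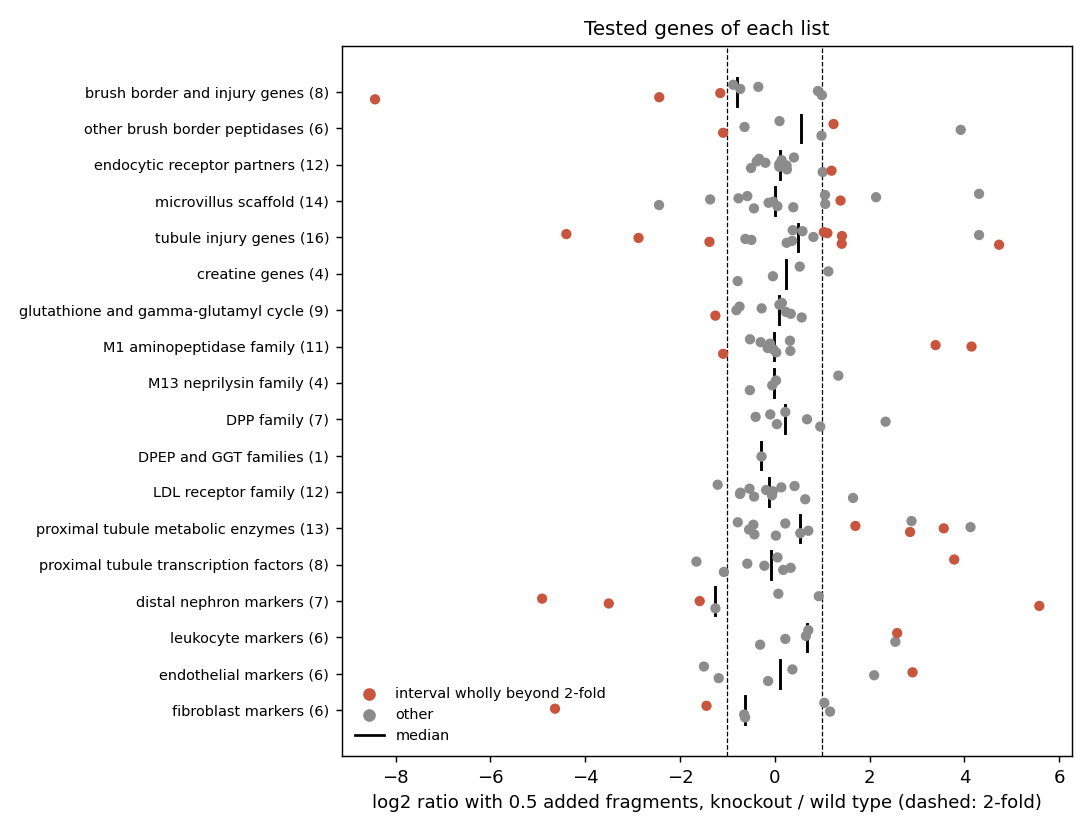
Log2 ratio of knockout to wild type, with 0.5 added fragments, for every tested gene of each list (points, 1 library per line), red where the 95% counting interval lies beyond 2-fold, with the list median as a black line and the number tested in brackets. The median of the brush border and injury genes is -0.80 and that of the 16 other genes of the injury list 0.48, with called genes on both sides in the latter.

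The brush border label was checked against other markers. Enzymes that define mature proximal tubule metabolism were scarce: of 18 genes, 1 was at 1 RPKM or more in each library, G6PC and CYP4A11 were at 0 in both, and PCK1 and FBP1 had 0 wild-type fragments and 1 knockout fragment each. Of the 13 tested, 3 were called higher and 0 lower (median 0.54; 5.75% and 3.37% of all genes), namely ACSM2A, BHMT and DDC, all below 0.4 RPKM. ACSM2A has the near-identical copy ACSM2B, so its 3 and 35 fragments are uncertain. Of the 10 genes, HAVCR1, GGT1, DPP4 and PDZK1 were at 6.60 RPKM or more in both libraries. GATM, CUBN and DPEP1 were at most at 0.167 RPKM in either library, and LRP2 was at 0 in both. ANPEP and MME were at 8.36 and 3.49 RPKM in the wild type and at 0.0236 and 0.679 RPKM in the knockout.

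ANPEP, MME and DPP4 are also leukocyte antigens, so leukocyte markers were read beside them. Of 14 leukocyte markers 6 were tested and 1 was called, CD14 at 7 and 38 fragments (ratio 6.33, interval 2.79 to 16.8). Of all genes tested, 5.75% were called higher and 3.37% lower. Together they came to 1.25 and 2.58 CPM. The most abundant of them was at 0.111 RPKM in the wild type and 0.302 RPKM in the knockout. Against this DPP4 was at 33.0 and 69.5 RPKM and MME at 3.49 and 0.679 RPKM. ANPEP was at 8.36 and 0.0236 RPKM, so in the knockout it lay below that marker. PTPRC (CD45), which defines leukocytes, had 2 fragments and 1 fragment, and CD3E and MPO had 0 in both. The 8 endothelial markers summed to at most 1.98 CPM in a library, and of 6 tested ERG was called higher (3 and 22 fragments). The 7 fibroblast markers summed to 12.6 and 18.3 CPM. Of 6 tested, LUM (ratio 0.367) and COL1A2 (14 and 0 fragments) were called lower. With a 99% interval 0 endothelial markers were called higher and 0 fibroblast markers lower. LUM was also not called with total count scaling (ratio 0.387), and COL1A1 was called higher with total count (ratio 2.37) and upper quartile scaling (2.36). Distal nephron markers summed to 9.71 and 6.96 CPM. Of the 7 tested, 3 were called lower (AQP3, SCNN1A and GATA3; 3.37% of all genes) and 1 higher (5.75% of all genes), CALB1 at 0 and 20 fragments, whose ratio had an exact lower limit of 5.76. UMOD had 0 and 2 fragments and AQP2 0 in both.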

How the data were processed

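RNA of 1 wild-type and 1 SETD2 knockout library was sequenced, and groups were taken from the labels. The authors deposited a read count and an RPKM value per gene, per the file headers. The build (hg19) and the tools (HTSeq, Bowtie, TopHat2 2.0.6) come from the submitters' processing notes. For annotation release, settings and strand the sources used here give nothing.

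Every deposited count was even, so counts were divided by 2 to obtain fragments, whereas the design had assumed 1 count per read. Rows on Y of 23 genes also on X were dropped, leaving 23375 rows. The deposited RPKM was the count over row length and a library total, of which the tables held 72.7% (wild type) and 72.9% (knockout).

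Libraries were scaled by TMM in edgeR 4.0.16 (R 4.3.3) using 16894 genes whose reads over both libraries reached 10. Ratios have exact conditional (Clopper-Pearson) 95% intervals, log2 ratios used 0.5 added fragments, and RPKM intervals are exact Poisson intervals of the fragments. No p-value was computed, since 1 library per group gives no replicate error. Nearest expressed genes were those with at least 100 reads. Promoter windows came from the RefSeq table on GRCh38.p14, which held all 10 genes. Proteins were not used here.

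The genes, the 17 companion lists and the call rule were chosen with earlier results of these data known. Of 180 listed symbols, 177 rows were found, older symbols being matched through RefSeq synonyms. Named genes were the 10 genes, SETD2, up to 2 called genes per direction of each list (otherwise its 2 most abundant), the genes nearest to the called member with the most fragments, and defining markers. Other genes were named after their values were seen: flanking, overlapping and copy genes, list members known as partners, and the motifs searched. The alternatives tried were scaling by upper quartile, by total count or by DESeq2 1.42.0 size factors, a 99% interval, undivided counts, minimums of 1 and 50 reads, 1.5-fold, the ratio without an interval, RPKM ratios and ratios relative to the 50 nearest expressed genes. Some genes of the lists are not reported here.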

Additional observations from a re-analysis of the deposited data

How the results depend on the processing

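ANPEP, MME and GGT1 were called lower under all 9 alternatives that were counted, and with 1.5-fold the count rose to 4 as PDZK1 joined them. No gene of the 10 was called higher with TMM at 2-fold, and 1, DPP4, was with total count scaling, upper quartile scaling and 1.5-fold. Of the 16894 genes tested, 971 were called higher and 569 lower with TMM. With total count scaling these were 1081 and 490, and with upper quartile scaling 1076 and 492, so the calls of all genes also moved toward higher. With 1.5-fold 10.4% of all genes were called higher. Of the 140 companion genes tested, 17 were called higher and 10 lower (5.75% and 3.37% of all genes tested). With 1.5-fold these were 26 and 17 (10.4% and 9.17% of all genes), and with the ratio alone beyond 2-fold 34 and 18 (13.5% and 7.79%). Over all alternatives the ratio ranged from 0.00266 to 0.00294 for ANPEP, 0.183 to 0.195 for MME, 0.448 to 0.476 for GGT1 (scaling, RPKM and nearest genes), 1.98 to 2.10 for DPP4, 0.599 to 0.689 for PDZK1, 0.762 to 0.831 for HAVCR1, 0.532 to 0.566 for GATM and 1.87 to 2.73 for CUBN, and no ratio changed direction. The order of levels did not change with scaled CPM per kilobase. No paired analysis was possible because each group has 1 library. Depth limits DPEP1, GATM, CUBN and LRP2, and the missing replicates limit every comparison.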
